A study of Mus musculus with 64 samples.

Results

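CD103 is the αE chain of an integrin, encoded by Itgae (chr11:73090583-73147446, plus strand, mm10, GENCODE M21), and it was followed here as 1 of 11 antibodies counted on single immune cells of the colon during T cell transfer colitis. The series holds 64 samples. The CD103 antibody was read in the 9 surface protein libraries of SCID mice, and the other 55 samples were not analysed here. Of 130442 cells kept, 24647 were CD103+.

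CD103 pairs with the integrin β7 chain, and the pair binds E-cadherin on epithelial cells. In the intestine it is known from T cells that sit in or next to the epithelium and from conventional dendritic cells that carry antigen to the draining lymph node. On dendritic cells it is read together with CD11b, which separates the CD103+CD11b- from the CD103+CD11b+ kind, and some innate lymphoid cells carry it as well.

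All groups are labelled SCID with transfer of CD45RBhi cells, naive T cells that bring on colitis in such hosts. Such hosts form no T or B lymphocytes of their own. The treated group received anti-IL-12p40 from day 10 and was collected at week 7; p40 is a subunit common to the cytokines IL-12 and IL-23. The untreated groups were collected at weeks 0, 1, 2, 3, 4, 5, 6 and 7, and the week 0 group carries the same transfer label as the others. Whether its mice were taken before or just after transfer was not stated, and its library held 1 CD3+CD4+ cell. The genotype label of these libraries is SCID, and the strain label BALB/c SCID stands on other samples of the series. Each group was 1 library of the sorted EpCAM- and CD45+ fraction, pooled from 3 animals, so the spread between mice is unknown, and animal age was not given in the sources used here.

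Per library there were 11534 to 21229 barcodes with 12914066 to 28723452 antibody counts in all. CD103 made up 0.619% to 4.55% of the antibody counts of the cells kept. A cell was called CD103+ when its centred log ratio was above 0.15, where this ratio is ln(count + 1) for CD103 less the average of the same quantity across all 11 antibodies of that cell, and 2.98% to 8.51% of cells per library lay within 0.25 of that threshold. The week 2 library stood apart. Its CD103+ cells had a median of 39 CD103 counts, against 64 to 161 in the other 8 libraries, and its CD103- cells a median of 1, against 2 to 8. All library pairs (36) shared barcodes, 30 to 110 each. Total counts per cell had a rank correlation of 0.643 with week (exact permutation p = 0.0962), and the part of depth in the results was not tested beyond thinning all cells to 242 counts.

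The share of all cells that carried CD103 had no trend that passed the test, while the class of cell that carried it changed. From week 0 to week 7 the CD103+ share read 28.8%, 23.2%, 7.63%, 9.48%, 14.4%, 24.6%, 15.4% and 23.7%. The share was thus high at both ends and lowest at weeks 2 and 3. The rank correlation with week was 0 over the 8 untreated libraries (two-sided exact permutation p = 1, adjusted p = 1 over 11 antibodies; Pearson r = -0.0715, exact permutation p = 0.861). Without weeks 0 and 7 it was 0.314 (exact permutation p = 0.564). Among the 11 antibodies, 2 passed this test, which is 18.2%.

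Cells were placed in exclusive classes by their other proteins, so that each CD103+ cell had 1 bearer class. CD3+CD4+ cells have the phenotype of helper T cells, and CD11c+CD64- cells include dendritic cells. CD4- cells of the CD3-CD90.2+ class, which lack CD11b, CD11c and CD64, have the phenotype of innate lymphoid cells. The panel held no marker that names a dendritic or innate lymphoid cell alone, and the class names here are the gates.

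CD11c+CD64- cells were the main bearers at the start. From week 0 to week 7 they made up 62.6%, 54.8%, 29.7%, 19.7%, 32.5%, 11.1%, 23.0% and 2.91% of the CD103+ pool. The week 7 share was below those of the other 7 weeks. The rank correlation with week was -0.83 (exact permutation p = 0.0154, adjusted p = 0.0277 over 9 classes; Pearson r = -0.884, exact permutation p = 0.00387). Of the 9 classes, 5 passed this test, which is 55.6%, and shares that sum to 100% cannot move independently. The call was lost without week 0, 1, 2, 5 or 7 (adjusted p 0.0614 to 0.119, exact permutation), and the rank correlation over weeks 1 to 6 was -0.60 (exact permutation p = 0.242).

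CD3+CD4+ cells took their place. They were 0 of 4827 CD103+ cells at week 0, which allows a share of up to 0.0622%, and 1.61% at week 1. From week 2 to week 7 their share read 24.5%, 47.0%, 48.9%, 66.2%, 41.8% and 89.6%. Every later week lay above week 1, with the week 6 library below weeks 3 to 5. The rank correlation was 0.86 (exact permutation p = 0.0107, adjusted p = 0.0241; Pearson r = 0.908, exact permutation p = 0.00258). It was 0.66 over weeks 1 to 6 (exact permutation p = 0.175), and the call was lost without week 0, 1, 2 or 7 (adjusted p 0.0864 to 0.108, exact permutation) and with a posterior of 0.9 (0.76, adjusted p = 0.0551, exact permutation).

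CD4- CD3-CD90.2+ cells were the second bearer class early on and almost left the CD103+ pool. They made up 26.3%, 28.7% and 27.2% of CD103+ cells at weeks 0, 1 and 2, then 16.1% at week 3 and 2.52%, 2.02%, 1.19% and 0.815% at weeks 4 to 7. The first 4 weeks did not overlap the last 4. The rank correlation was -0.93 (exact permutation p = 0.00223, adjusted p = 0.010; Pearson r = -0.920, exact permutation p = 0.00159), and -1 over weeks 1 to 6 (exact permutation p = 0.00278). Without week 7 the adjusted p was 0.0554 (exact permutation), with a rank correlation of -0.89.

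CD4+ cells of the CD3-CD90.2+ class contributed 0.249%, 0.342%, 1.87%, 2.69%, 3.02%, 7.49%, 29.9% and 4.11% of CD103+ cells at weeks 0 to 7. The rank correlation was 0.93 (exact permutation p = 0.00223, adjusted p = 0.010), while Pearson r was 0.569 (exact permutation p = 0.122) with week 6 far above the rest. The call was lost with library-scaled counts (0.40, adjusted p = 0.420, exact permutation) and without week 0 or 1 (adjusted p = 0.0554, exact permutation). At week 6 this class was 14.9% of all cells, against 0.994% to 3.38% in the other untreated libraries, and the part of this in the result was not tested. Counted together with CD3+CD4+ cells, a choice made after seeing the data, these CD4+ cells gave a rank correlation of 0.976 (exact permutation p = 0.000397, adjusted p = 0.00357). CD64+Ly-6C- cells, a macrophage phenotype, had a falling share of the CD103+ pool (rank correlation -0.88, exact permutation p = 0.00724, adjusted p = 0.0217; Pearson r = -0.855). They made up 5.80% of CD103+ cells at week 0 and 0.0354% (1 cell) at week 7, both weeks in which the CD103+ share of this class was no higher than in neutrophil-phenotype cells. The call was lost without week 0, 1, 6 or 7 (adjusted p 0.0614 to 0.102, exact permutation). With thresholds fitted in each library, the trends of CD4+ CD3-CD90.2+ cells (0.67) and of CD64+Ly-6C- cells (-0.38) did not pass (adjusted p = 0.187 and 0.405, exact permutation), and neither did those of CD11c+CD64- and CD4- CD3-CD90.2+ cells (-0.71 and -0.83, adjusted p = 0.173 and 0.0692, exact permutation). The CD3+CD4-, CD11b+Ly-6C+ and CD11b+Ly-6G+ classes and the cells outside all classes did not pass, with adjusted p from 0.144 to 0.360 (exact permutation).

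**Figure D1:**
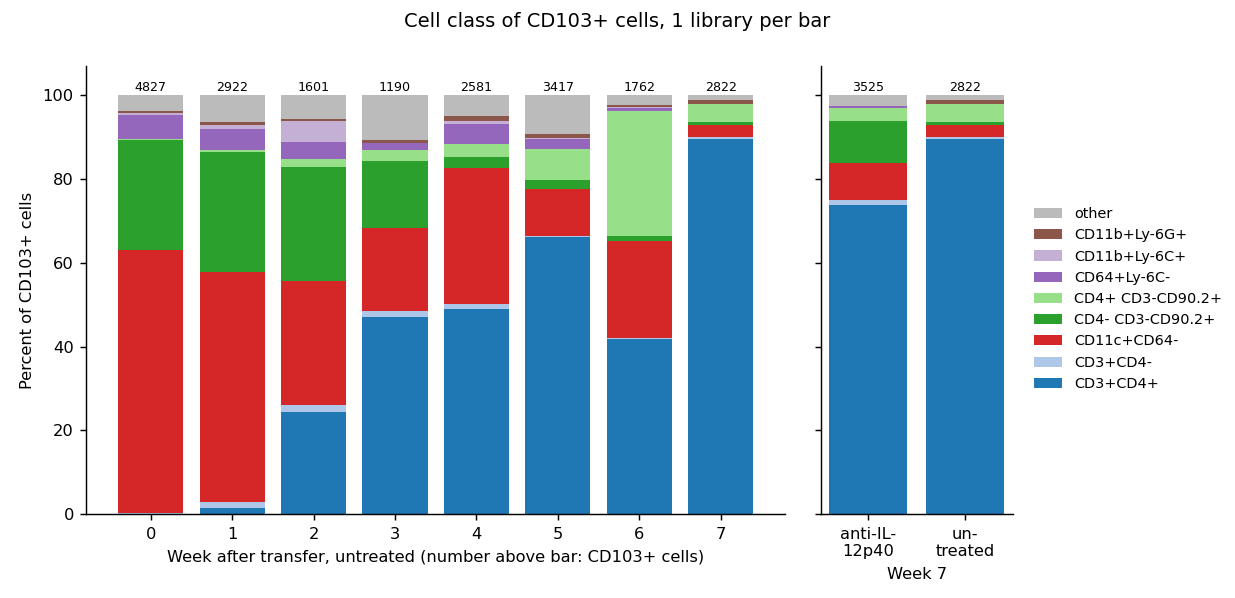
Percent of CD103+ cells (y axis) by cell class in 1 library per bar, for untreated weeks 0 to 7 on the left and for the anti-IL-12p40 and untreated week 7 libraries on the right, with the number of CD103+ cells above each bar. CD11c+CD64- cells (red) fill 62.6% of the week 0 bar and 2.91% of the untreated week 7 bar, where CD3+CD4+ cells (blue) fill 89.6%.

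The makeup was set beside the one that class sizes alone would give. When the CD103+ share of each class was held at its mean over the untreated weeks, so that only class sizes varied between libraries, the computed CD3+CD4+ share of CD103+ cells at weeks 0, 2, 4 and 7 was 0.00307%, 33.9%, 51.6% and 84.8%. The observed shares at those weeks were 0%, 24.5%, 48.9% and 89.6%. For CD11c+CD64- cells the computed share was 54.3% at week 0 and 5.76% at week 7, against 62.6% and 2.91% observed. This calculation was added after seeing the data and carries no test. In shares of all cells, CD103+CD3+CD4+ cells were 0.373% at week 1 and 21.2% at week 7. CD103+CD11c+CD64- cells were 18.1% at week 0 and 0.689% at week 7.

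Within classes, the CD103+ share averaged over weeks was highest on CD11c+CD64- cells, though CD4+ CD3-CD90.2+ cells lay above them at weeks 5 and 7. CD103 was found on 63.4%, 63.4%, 24.4%, 38.1%, 56.2%, 53.6%, 47.7% and 42.9% of CD11c+CD64- cells from week 0 to week 7. The exact Clopper-Pearson 95% interval, which covers counting error only, ran from 62.0 to 64.8 for week 0 and from 35.8 to 50.3 for week 7. The mean was 48.7% ± 13.4 (SD, n = 8), and the low week 2 value came from the library with low CD103 counts. The rank correlation with week was -0.40 (exact permutation p = 0.327, adjusted p = 0.521 over 59 antibody and class pairs; Pearson r = -0.253, exact permutation p = 0.546) and -0.64 without week 2 (exact permutation p = 0.139). Over weeks 1 to 6 it was -0.086 (exact permutation p = 0.919).

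CD11b, a myeloid integrin chain, and CD90.2, a lymphocyte protein, divided the CD11c+CD64- class. The CD11b- cells were CD103+ at 28.2% to 68.5% over the 8 weeks, and the CD11b+ cells at 14.0% to 59.9% over the 7 weeks with at least 50 such cells. CD11c+CD64- cells that lacked CD90.2 were CD103+ at 41.9% to 82.6%, and those lacking both CD90.2 and CD11b at 52.2% to 86.0%. Without the CD64 gate, CD11c+CD3- cells were CD103+ at 10.7% to 49.8%.

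Levels were also taken over all cells of a class, CD103- cells included. The median of CD11c+CD64- cells was 104, 66.5, 2, 14, 23.5, 29, 26 and 12 CD103 counts from week 0 to week 7, and their mean centred log ratio 1.24, 1.20, -0.68, -0.12, 0.36, 0.43, 0.11 and 0.19. The mean ratio of CD3+CD4+ cells was -1.25, -1.75, -1.30, -1.27, -0.58, -0.99 and -0.65 from week 1 to week 7, and that of CD4- CD3-CD90.2+ cells -0.52, -0.61, -0.89, -0.56, -0.27, -0.19, -0.54 and -0.15 from week 0. Means of CD11c+CD64- cells thus lay above those of both lymphoid classes at every shared week, and week 2 was lowest in all 3. At week 7 the mean ratio was 0.24 in treated and 0.19 in untreated CD11c+CD64- cells, -0.49 and -0.65 in CD3+CD4+ cells, and -0.45 and -0.15 in CD4- CD3-CD90.2+ cells.

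On CD3+CD4+ cells the CD103+ share was lowest at week 2 and highest at week 7. From week 1 to week 7 it read 7.82%, 4.77%, 7.53%, 13.1%, 22.8%, 11.6% and 24.2% (23.4 to 25.1), and week 0 held a single such cell. The rank correlation over these 7 libraries was 0.79 (exact permutation p = 0.0480, adjusted p = 0.189; Pearson r = 0.792, exact permutation p = 0.0389) and did not pass adjustment. Over weeks 1 to 6 it was 0.66 (exact permutation p = 0.175). With a threshold fitted in each library it was 0.98 and passed (exact permutation p = 0.000397, adjusted p = 0.0224), and with library-scaled counts it was 0.14 (exact permutation p = 0.752, adjusted p = 0.779).

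CD4- CD3-CD90.2+ cells kept CD103 at a middle level. From week 0 to week 7 the share read 19.6%, 17.2%, 14.7%, 19.4%, 32.3%, 26.4%, 13.2% and 23.2%. The last value had a 95% interval from 15.3 to 32.8 because it rested on 23 of 99 cells. The rank correlation was 0.19 (exact permutation p = 0.665, adjusted p = 0.763; Pearson r = 0.245), and it turned to -0.036 without week 7.

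The widest range within a class was on CD4+ CD3-CD90.2+ cells. Their CD103+ share from week 0 to week 7 read 2.29%, 2.35%, 8.50%, 19.8%, 43.8%, 55.1%, 31.0% and 54.5%. The last 4 weeks lay above the first 4. The rank correlation was 0.88 (exact permutation p = 0.00724; Pearson r = 0.883, exact permutation p = 0.00680; over weeks 1 to 6 it was 0.83, exact permutation p = 0.0583), with an adjusted p of 0.0712. Thresholds fitted in each library (adjusted p = 0.0224, exact permutation) or a stricter posterior of 0.9 (adjusted p = 0.0372, exact permutation) gave a pass.

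Of the 8 classes, 0 passed this trend test for CD103 after adjustment, as did 0 of all 59 antibody and class pairs (0%). Unadjusted, 3 of 8 classes had an exact permutation p under 0.05, against 25.4% of the 59 pairs (6.78% rising and 18.6% falling). The third was CD11b+Ly-6C+ cells, the phenotype of monocytes, with 8.19% CD103+ at week 0 and 0 of 111 cells at week 7, which allows up to 2.70% (rank correlation -0.83, exact permutation p = 0.0154, adjusted p = 0.0907; over weeks 1 to 6 -0.60, exact permutation p = 0.242). CD3+CD4- cells were CD103+ at 5.57% to 19.2% over 7 weeks, and CD64+Ly-6C- cells at 1.59% to 12.03% over 8.

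CD11b+Ly-6G+ cells have a neutrophil phenotype and should lack CD103, and their CD103+ share was set beside those of the other classes. From week 0 to week 7 it read 17.6% (22 of 125 cells), 11.4%, 1.39%, 1.86%, 2.65%, 6.69%, 1.55% and 4.81%. Their median depth was 1404 to 4575 counts, against 839.5 to 1492 in CD3+CD4+ and 450 to 868 in CD11c+CD64- cells of the untreated libraries. At or below this share in the same week lay the CD3+CD4+ share of week 1 and the CD4+ CD3-CD90.2+ shares of weeks 0 and 1. The CD64+Ly-6C- shares of weeks 0, 1, 3 and 7 did as well, and the CD11b+Ly-6C+ shares of all weeks but week 2. CD103+ cells of these gates were bright all the same. At week 0, CD103+ CD11b+Ly-6G+ cells had a median of 311 CD103 counts, against 6 on CD103- cells. CD103+ CD64+Ly-6C- cells had 232, against 15. At week 1, CD103+CD3+CD4+ cells had 64, against 2. Whether these cells bear CD103 themselves was not tested. The CD4- CD3-CD90.2+ share of week 0, 19.6%, lay within the interval of the neutrophil-phenotype share (11.4 to 25.4). The CD11c+CD64- shares lay above it in all 8 weeks.

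**Figure D2:**
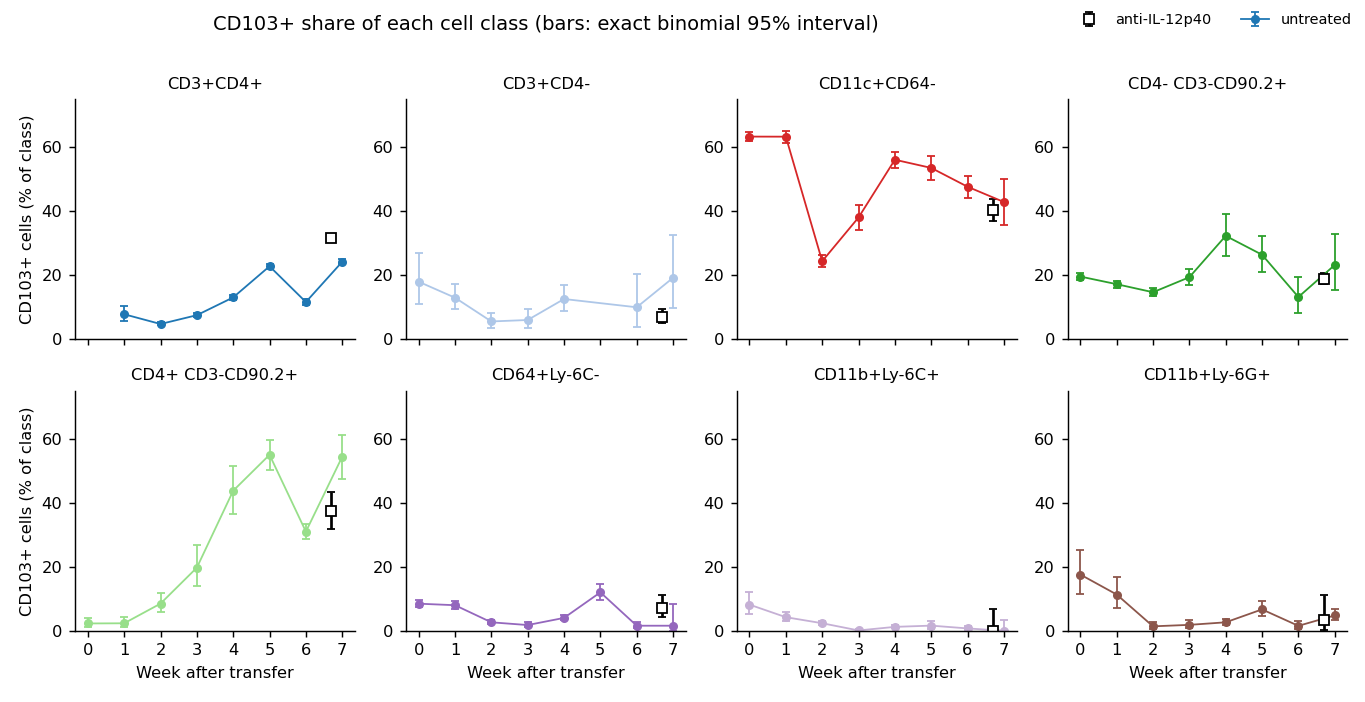
CD103+ cells as a percent of each of 8 cell classes (y axis, the same scale in all panels) by week after transfer (x axis), with exact binomial 95% intervals. Filled points are untreated libraries and the open square left of week 7 is the anti-IL-12p40 library. CD11c+CD64- cells lie highest at weeks 0 and 1, and CD4+ CD3-CD90.2+ cells climb to 55.1% at week 5.

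In the order of mean CD103+ share, CD11c+CD64- cells (48.7% ± 13.4) stood first, followed by CD4+ CD3-CD90.2+ cells (27.2% ± 22.2), CD4- CD3-CD90.2+ cells (20.8% ± 6.34), CD3+CD4+ cells (13.1% ± 7.63), CD3+CD4- cells (12.1% ± 5.33), CD11b+Ly-6G+ cells (5.99% ± 5.79), CD64+Ly-6C- cells (5.02% ± 3.97) and CD11b+Ly-6C+ cells (2.31% ± 2.74; SD, n = 7 libraries for both CD3+ classes and 8 for the others). CD11c+CD64- cells lay above CD4+ CD3-CD90.2+ cells in 6 of 8 libraries. Of the 7 differences between neighbours in this order, 0 passed adjustment (0%; exact sign-flip permutation test over libraries) and 4 had an unadjusted p under 0.05. The nearest to passing were CD3+CD4- over CD11b+Ly-6G+ cells (6.17 percentage points, higher in 7 of 7 libraries) and CD64+Ly-6C- over CD11b+Ly-6C+ cells (2.71 points, higher in 8 of 8), both with an adjusted p of 0.0547 (exact permutation). Requiring 200 counts per cell gave 4 passes, as did leaving out week 7.

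Among the main bearer classes, raw CD103 counts on CD103+ cells also differed. On CD103+CD11c+CD64- cells the median from week 0 to week 7 was 249.5, 137, 49, 98, 69, 97.5, 80.5 and 90.5 CD103 counts. On CD103+CD3+CD4+ cells it was 64, 40, 71, 58, 73, 55 and 72 at weeks 1 to 7. On CD103+ cells of the CD4- CD3-CD90.2+ class it was 50, 23.5, 27, 65, 58, 46, 54 and 44 at weeks 0 to 7. CD103+ cells of the CD11b+Ly-6G+ gate, which should lack CD103, had higher medians than CD103+CD11c+CD64- cells in every untreated week. They had 311 counts at week 0 and 186 at week 7, from 7 to 35 cells per library. Raw counts on CD103+ cells therefore do not rank classes by the CD103 they bear.

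Within libraries, CD103+CD11c+CD64- cells were brighter than CD103+CD3+CD4+ cells by 0.38 ± 0.11 on the log2 scale of the medians (SD, n = 6, higher in 6 of 6; exact sign-flip permutation p = 0.03125, the smallest 6 libraries allow, adjusted p = 0.0469 over 3 pairs). They were brighter than CD103+CD4- CD3-CD90.2+ cells by 1.27 ± 0.94 (n = 6, higher in 6 of 6; the same exact p and adjusted p). CD3+CD4+ against CD4- CD3-CD90.2+ cells gave 0.34 ± 0.33 in 4 libraries (higher in 3 of 4; exact permutation p = 0.25, where 4 libraries cannot reach 0.05). These tests were added after seeing the data. CD103- cells of the same classes had medians of 1 to 10 counts, lowest at week 2, where each class had a median of 1.

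**Figure D3:**
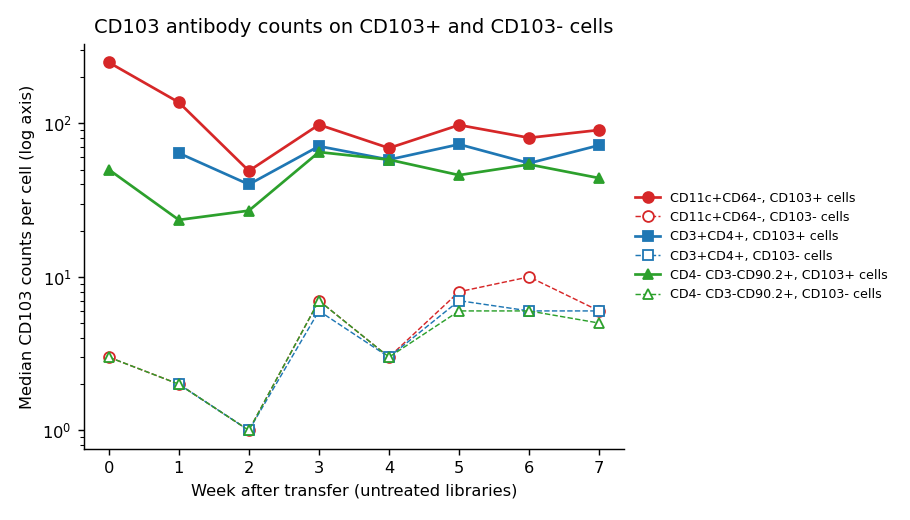
Median CD103 counts per cell (log axis) on CD103+ cells (filled) and CD103- cells (open) of 3 classes, by week after transfer in untreated libraries. CD103+CD11c+CD64- cells lie highest at every week, from 249.5 counts at week 0 to 49 at week 2, and all classes are lowest or near lowest at week 2.

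**Figure D4:**
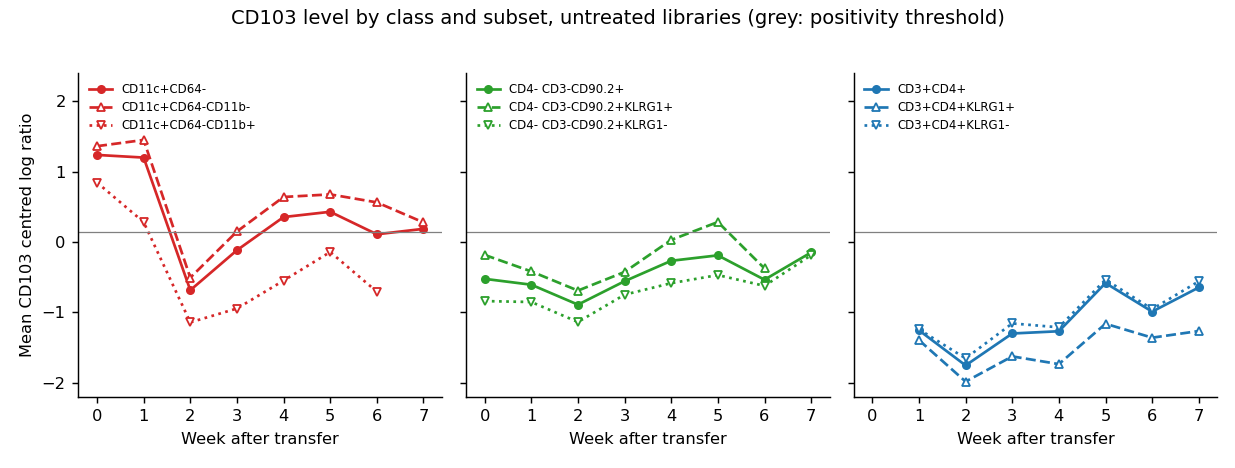
Mean CD103 centred log ratio (y axis) by week in untreated libraries for CD11c+CD64- cells split by CD11b, and for CD4- CD3-CD90.2+ and CD3+CD4+ cells split by KLRG1, with the positivity threshold of 0.15 as a grey line. Subsets with fewer than 50 cells in a library are left out. CD11b- cells lie above CD11b+ cells, KLRG1+ above KLRG1- innate lymphoid phenotype cells, and KLRG1+ below KLRG1- CD3+CD4+ cells.

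The other proteins on CD103+ cells are given class by class. They were compared between CD103+ and CD103- cells of the same class and library, in libraries with at least 50 cells of each kind. Of 19 antibody and class pairs, 15 passed (exact sign-flip permutation test over libraries, Benjamini-Hochberg adjusted), which is 78.9%. CD103 is part of the mean each ratio is taken against, which lowers the other ratios on CD103+ cells. With ratios taken without CD103, 13 of the 19 passed, and with library-scaled counts in place of ratios, 6 passed. Scaled counts changed which cells and libraries met the minimum, so fewer pairs could be tested there, and KLRG1 on CD4- CD3-CD90.2+ cells was not among them.

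KLRG1, an inhibitory lectin-like receptor that binds cadherins, marked the CD103+ innate lymphoid phenotype at weeks 0 to 5. Among CD4- CD3-CD90.2+ cells it was found on 88.4%, 89.4%, 86.5%, 78.5%, 73.8% and 73.9% of CD103+ cells at weeks 0 to 5, against 38.3%, 49.8%, 49.9%, 54.6%, 41.2% and 24.0% of CD103- cells. The CD103+ values all lay above the CD103- values. The mean was 81.8% on CD103+ and 43.0% on CD103- cells, a difference of 38.8 ± 10.2 percentage points (SD, n = 6, higher in 6 of 6; exact permutation p = 0.03125, adjusted p = 0.0396). Ratios taken without CD103 gave 44.1 points. Weeks 6 and 7 held too few CD103+ cells of the class for this comparison. KLRG1 was on 13 of 21 of them at week 6 and on 8 of 23 at week 7. Seen the other way, 23.0% to 52.6% of KLRG1+ cells of the class were CD103+ over 7 weeks, and 4.21% to 21.1% of KLRG1- cells over 8.

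On CD3+CD4+ cells the difference had the opposite sign, though the contrast between the classes rested on 4 shared libraries and could not pass (exact permutation p = 0.125, adjusted p = 0.175). KLRG1 was found on 23.2%, 7.69%, 4.68%, 2.65%, 3.94% and 4.27% of CD103+ cells at weeks 2 to 7, against 30.8%, 32.4%, 11.6%, 9.39%, 9.503% and 14.9% of CD103- cells. It was lower on CD103+ cells in each of these 6 libraries, by 10.4 ± 7.24 points (means 7.74% on CD103+ and 18.1% on CD103- cells; SD, n = 6; exact permutation p = 0.03125, adjusted p = 0.0396). Scaled counts gave a difference of -4.49 points (exact permutation, adjusted p = 0.522) over a different set of libraries, and ratios taken without CD103 gave -7.82 points (exact permutation, adjusted p = 0.0457).

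CD127, the interleukin-7 receptor, was somewhat more frequent on CD103+ than on CD103- CD3+CD4+ cells (51.5% and 45.9%, a difference of 5.55 ± 5.89 points, higher in 6 of 6; exact permutation p = 0.03125, adjusted p = 0.0396). The call was lost in thinned cells, with the top 5% of totals removed and when each library had its own threshold (adjusted p 0.0699 to 0.656, exact permutation). With a posterior of 0.9 the difference was -3.06 points (exact permutation, adjusted p = 0.252), and the CD127 antibody did not separate into clear positive and negative groups. CD11c was found on 7.80% of CD103+ and 2.65% of CD103- CD3+CD4+ cells (higher in 6 of 6; adjusted p = 0.0396, exact permutation). It missed with thresholds fitted in each library (adjusted p = 0.0636, exact permutation). The difference was 18.1 points at week 2 and 0.354 points at week 7. In percent positive, CD11b, CD64, Ly-6C and Ly-6G were all lower on CD103+ CD3+CD4+ cells, by 3.99, 1.62, 1.13 and 1.01 points on average. Median CD11b and CD64 counts were not lower on CD103+ cells in any of these libraries. Median Ly-6C counts were lower at weeks 2 to 6, and median Ly-6G counts at week 4 only. CD90.2 was on 93.7% of CD103+ and 93.8% of CD103- cells (exact permutation p = 0.844).

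CD103+CD11c+CD64- cells were positive for 6 of the other proteins less often than CD103- cells of the class. CD11b was found on 22.8%, 15.0%, 16.8%, 8.94%, 11.9%, 20.5%, 13.8% and 7.32% of CD103+ cells at weeks 0 to 7, against 26.4%, 32.5%, 31.7%, 33.8%, 39.5%, 41.3%, 55.7% and 22.9% of CD103- cells. It was lower on CD103+ cells in 8 of 8 libraries, by 20.8 ± 11.2 points (means 14.6% and 35.5%; exact permutation p = 0.00781, the smallest 8 libraries allow, adjusted p = 0.0247). The gap was narrowest at week 0 and widest at week 6. Median CD11b counts were lower on CD103+ cells at weeks 2 to 6 only. They were higher on CD103+ cells at week 0 (16, against 10), week 1 (8, against 6) and week 7 (9, against 7). Scaled counts gave -10.2 points with an adjusted p of 0.0670 (exact permutation).

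CD90.2 was on 19.3% of CD103+ and 48.4% of CD103- CD11c+CD64- cells. KLRG1 was on 4.38% and 19.7% of them, CD4 on 9.35% and 20.2%, CD127 on 16.4% and 41.0%, and Ly-6C, a monocyte protein, on 3.05% and 12.2%. All were lower on CD103+ cells in 8 of 8 libraries, with the adjusted p of CD11b, but the CD127 call was lost with ratios taken without CD103 (-8.52 points, exact permutation, adjusted p = 0.121). The CD103- side of the class thus held more lymphocyte proteins, and the part of lymphoid cells in this was not tested.

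In the innate lymphoid phenotype, CD127 was on 84.3% of CD103+ and 83.4% of CD103- cells (exact permutation p = 0.75). Ly-6C was on 1.70% and 8.90% (lower in 6 of 6, adjusted p = 0.0396, exact permutation), a difference carried by week 2, where it was on 10.1% and 45.9%. The Ly-6C antibody was also poorly separated. Over class and library combinations, the proteins whose share was most like that of CD103 were CD90.2 (Spearman correlation 0.590 over 52 combinations of 6 classes) and CD127 (0.547 over 70 combinations of 8 classes). These correlations are descriptions, since the points share libraries, depth and cell classes.

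**Figure D5:**
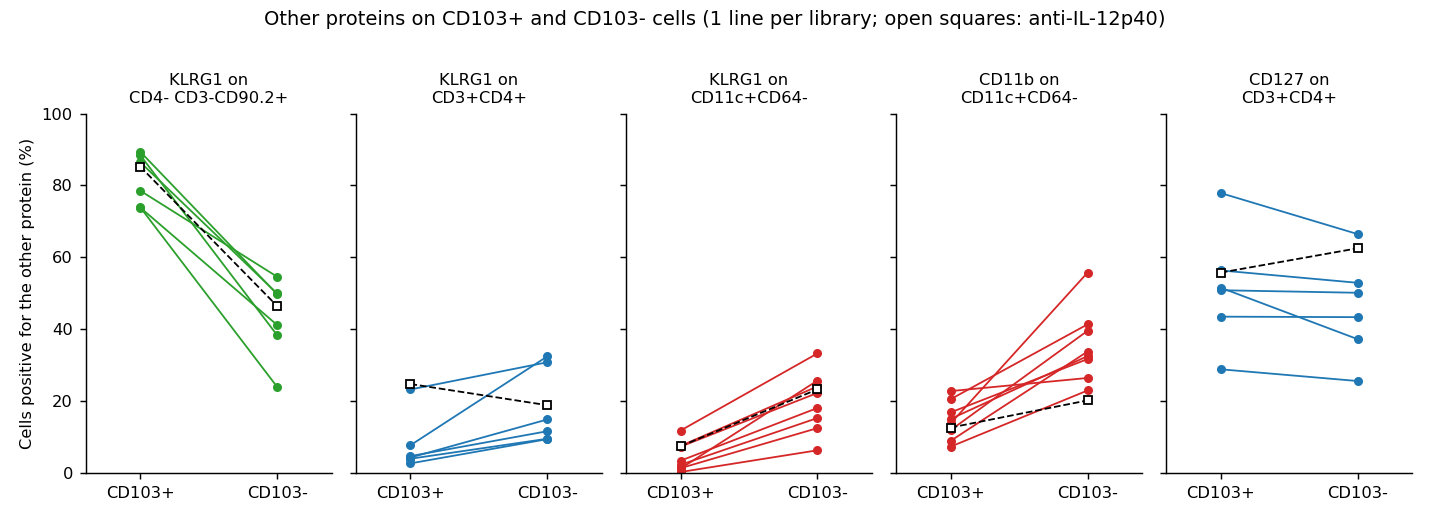
Percent of cells positive for another protein (y axis) on CD103+ cells and on CD103- cells of the same class and library, 1 line per library. Filled points are untreated libraries and open squares the anti-IL-12p40 library. KLRG1 was 38.8 points higher on CD103+ than on CD103- cells of the CD4- CD3-CD90.2+ class and 10.4 points lower on those of the CD3+CD4+ class in untreated libraries, while the treated line of the CD3+CD4+ panel slopes the other way.

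Treatment with anti-IL-12p40 was compared at week 7 as 1 library against 1, with no test. A difference counted as large when it met 3 conditions: a ratio of 1.5 or more in either direction, separate 95% intervals, and a treated value beyond the range of untreated weeks 5 to 7. CD103+ cells were 28.3% (27.6 to 29.1) of cells in the treated library, against 23.7% (22.9 to 24.5) in the untreated library, a ratio of 1.20. This was not large, whereas 4 of the 11 antibodies (36.4%) were. The treated library had 1566 counts per cell at the median and the untreated library 1366.

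CD3+CD4+ cells were CD103+ at 31.8% (30.8 to 32.8) with treatment, against 24.2% (23.4 to 25.1) without. The ratio of 1.31 was under the size rule, and on the percent of antibody counts it was 0.884. CD11c+CD64- cells were CD103+ at 40.4%, against 42.9% (ratio 0.941), and the ratio turned to 1.18 on the percent of counts, 1.06 with scaled counts and 1.02 in thinned cells. CD90.2 was on 61.6% of these cells with treatment, against 38.7% without. Those lacking CD90.2 were CD103+ at 54.4% (48.5 to 60.2), against 50.4% (41.0 to 59.8). Those with CD90.2 were CD103+ at 31.6%, against 31.1%. CD4- CD3-CD90.2+ cells were at 18.9% (352 of 1861), against 23.2% (23 of 99), a ratio of 0.814. On the percent of counts the ratio was 0.354, which met the ratio and range conditions. No interval was taken for that measure.

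CD4+ CD3-CD90.2+ cells were CD103+ at 37.6% with treatment, against 54.5% (ratio 0.690), a value inside untreated weeks 5 to 7. The direction turned with scaled counts (1.17), in thinned cells (1.00) and with a posterior of 0.9 (1.04). The one large CD103 difference among the classes was in CD3+CD4- cells, at 7.07% (40 of 566) with treatment, against 19.2% (10 of 52) without, a ratio of 0.367. It was no longer large in thinned cells (0.619) or with ratios taken without CD103 (0.557). The CD3+CD4- gate also held unlike cells in the treated and untreated libraries. CD90.2 was on 83.4% of them with treatment, against 46.2% without, and Ly-6G on 0.530%, against 17.3%. Their median depth was 1106 counts, against 393, and the part of this in the difference was not tested. Over all antibody and class pairs 19 of 60 were large (31.7%), and for CD103 it was 1 of the 8 classes. For CD64+Ly-6C- cells (17 of 240, against 1 of 63), CD11b+Ly-6G+ cells (2 of 61, against 31 of 645) and CD11b+Ly-6C+ cells (0 of 53, against 0 of 111) the counts were too few for a ratio.

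The bearers differed more than the shares. CD4- CD3-CD90.2+ cells made up 9.99% (9.02 to 11.02) of CD103+ cells with treatment, against 0.815% (0.517 to 1.22) without, a ratio of 12.3 that was large. The treated value lay between those of untreated weeks 3 and 4. CD11c+CD64- cells made up 8.77%, against 2.91%, which lay inside untreated weeks 5 to 7 (2.91% to 23.0%). CD3+CD4+ cells made up 73.8% (72.4 to 75.3), against 89.6% (88.4 to 90.7). CD11b+Ly-6G+ cells made up 0.0567% (2 cells), against 1.10% (31 cells), and CD3+CD4- cells 1.13%, against 0.354%, both large by the rule. Class sizes differed as well: CD4- CD3-CD90.2+ cells were 15.0% of all treated cells, against 0.831% of untreated cells, while their own CD103+ share was not higher with treatment. With class CD103+ shares held at their means over all untreated weeks, the treated library would have had 51.2% CD3+CD4+, 18.4% CD4- CD3-CD90.2+ and 17.8% CD11c+CD64- cells among its CD103+ cells. Observed were 73.8%, 9.99% and 8.77%. The means used were 13.1%, 20.8% and 48.7%, against 24.2%, 23.2% and 42.9% at untreated week 7. This computed makeup therefore does not hold shares at their untreated week 7 values, and the gap includes differences between weeks.

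With treatment, KLRG1 stood the other way round on CD103+ helper T phenotype cells in percent positive, but not in median counts. It was found on 24.7% of CD103+ and 18.8% of CD103- CD3+CD4+ cells of the treated library, whereas it was lower on CD103+ cells in each of the 6 untreated libraries. Median KLRG1 counts were 1 on CD103+ and 2 on CD103- cells with treatment, and the same in the untreated week 7 library. Of KLRG1+CD3+CD4+ cells, 38.0% (644 of 1695; 35.7 to 40.4) were CD103+ in the treated library, against 8.42% (108 of 1283; 6.96 to 10.1) in the untreated week 7 library. The share was 1.90% to 8.42% over untreated weeks 1 to 7, so the treated value lay outside all of them, with a ratio of 4.51. This subset was chosen after its values were seen. KLRG1-CD3+CD4+ cells were CD103+ at 30.2% with treatment, against 26.5% without.

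The raw CD103 counts of KLRG1+CD3+CD4+ cells differed in the same direction as their CD103+ share. The upper decile of CD103 counts on KLRG1+CD3+CD4+ cells was 182.6 with treatment, against 16 without, and the medians were 6 and 5. CD103 was 2.84% of their antibody counts with treatment, against 1.25% without. Their median depth was 1683 counts with treatment, against 1147 without, and in cells thinned to 242 counts the ratio was 4.53. Over 9 other settings, the ratio of the CD103+ share, or of the percent of counts, ran from 2.27 to 7.01. Such KLRG1+CD103+CD3+CD4+ cells were 5.18% of all treated cells, against 0.907% of untreated cells.

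In percent positive, CD127 also stood the other way round, on 55.7% of CD103+ and 62.5% of CD103- CD3+CD4+ cells in the treated library. It was higher on CD103+ cells in each of the 6 untreated ones. Median CD127 counts did not turn. They were 10 on CD103+ and 8.5 on CD103- cells with treatment, and also higher on CD103+ cells in those 6 untreated libraries. The CD127 antibody was poorly separated. The other patterns kept the untreated direction with treatment. KLRG1 was on 85.2% of CD103+ and 46.5% of CD103- cells of the CD4- CD3-CD90.2+ class, and CD11b on 12.6% of CD103+ and 20.2% of CD103- CD11c+CD64- cells. The median CD11b counts of these CD11c+CD64- cells went the other way (8 on CD103+ and 5 on CD103- cells). With 1 treated pool, none of these differences from the untreated libraries could be tested against the spread between mice.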

How the data were processed

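The deposited files hold whole-number counts of 11 antibodies per cell barcode, not normalized, per the file headers and values. Cell Ranger 6.0.2, Seurat 4.1.1 and the build mm10 are listed, with no role, by the submitters' processing notes, and how barcodes were chosen was not stated there. About 16000 cells per sample were loaded, per the labels' protocols. Barcodes outnumbered the loaded cells at week 0 (16910), week 2 (21229) and week 4 (18103). Not every barcode there can be a separate loaded cell, and the part of this in the results was not tested.

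Of 131917 barcodes 130442 were kept, after removal of those under 50 counts and of the highest 1% of totals per library. No doublet caller was run, and doublets remain. Positivity thresholds came from a 2-component Gaussian mixture fitted to centred log ratios of 2000 cells per library, pooled, at equal posterior probability. Ashman's D, the distance between components in units of spread, was 2.69 for CD103, 1.56 for CD127 and 1.82 for Ly-6C, and values under 2 were called poorly separated.

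Each cell took the first gate it met. T cell gates (CD3+ by CD4) came first, then CD11b+ cells by Ly-6G and after that by Ly-6C, then CD64+Ly-6C-, CD11c+CD64- and finally CD3-CD90.2+ cells negative for the 3 myeloid proteins, by CD4. Trends with week used Spearman's and Pearson's correlations over 8 untreated libraries (7 for the CD3+ classes, each with at least 50 cells), with two-sided exact permutation over 40320 or 5040 orderings. Paired differences used the exact sign-flip permutation test over libraries. Benjamini-Hochberg adjustment ran over 11 antibodies, 59 antibody and class pairs, 9 bearer classes, 7 neighbours or 19 co-expression pairs, at 0.05. Libraries are pools, so a p-value measures the relation among these 8 pools and not the spread between mice.

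All 8 classes are named. Co-expressed antibodies are named where they passed, and the 2 antibodies most like CD103 by Spearman's correlation. The members, classes and lists were chosen with earlier results of these data known. Alternatives were other scalings, thresholds and depth filters, thinning, and leaving out each library. Steps were tested on simulated data. Scripts ran in Python 3.11.15 with scikit-learn 1.9.0 for mixtures, scipy 1.17.1 for intervals, matplotlib 3.10.9 for plots, and pandas 2.3.3 and numpy 2.4.6 for tables. No sequence of Itgae is printed.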

Additional observations from a re-analysis of the deposited data

Results flagged for a closer look

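The values given here had opposite signs between 2 classes in every untreated library tested. In the treated library KLRG1 and CD127 on CD3+CD4+ cells had the other sign in percent positive. Median CD127 counts there kept the untreated direction (10 on CD103+ and 8.5 on CD103- cells). Median KLRG1 counts there were 1 on CD103+ and 2 on CD103- cells, as in the untreated week 7 library. Of 14 differences between classes in the co-expression with CD103, 0 passed adjustment (exact sign-flip permutation test over shared libraries) and 7 had an unadjusted p under 0.05. The share of KLRG1+ cells, CD103+ minus CD103-, was higher by 54.1 percentage points in CD4- CD3-CD90.2+ than in CD11c+CD64- cells (mean differences 38.8 and -15.3 over 6 shared libraries; exact permutation p = 0.03125, adjusted p = 0.0625). It was higher by 47.3 points in CD4- CD3-CD90.2+ than in CD3+CD4+ cells (35.8 and -11.5 over 4 shared libraries; exact permutation p = 0.125, the smallest 4 libraries allow, adjusted p = 0.175). For CD127 the difference was 23.9 points between CD3+CD4+ and CD11c+CD64- cells (5.55 and -18.4 over 6 shared libraries; exact permutation p = 0.03125, adjusted p = 0.0625).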

How the results depend on the processing

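No paired analysis was possible because each group has 1 library and the labels carry no replicate numbers to block on across groups, while differences within libraries were already paired by library. Of 253 recomputed values of the main results, 217 kept their direction, size and side of the threshold, 15 lost and 2 gained the call, 14 moved and 5 turned. Of 290 for the others, 252 kept them, 18 lost and 2 gained the call, and 18 turned.

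With scaled counts, neighbouring classes differed in 2 cases and co-expression in 6, KLRG1 on CD3+CD4+ cells gave -4.49 points and CD11b on CD11c+CD64- cells -10.2 points. The treated to untreated ratio of the CD103+ share was 1.06 in CD11c+CD64- and 1.17 in CD4+ CD3-CD90.2+ cells, and the CD11b+Ly-6G+ bearer trend was -0.17. Thinning gave ratios of 1.02 and 1.00 in those classes, 0.619 in CD3+CD4- cells (0.557 with ratios taken without CD103), and left out 0.796% to 18.0% of cells per library. A threshold fitted in each library gave 2 class trends, 0.98 for CD3+CD4+ and 0.95 for CD4+ CD3-CD90.2+ cells, with 0.26 for CD64+Ly-6C- cells, and bearer trends of -0.71 for CD11c+CD64-, -0.83 for CD4- CD3-CD90.2+, 0.67 for CD4+ CD3-CD90.2+ and -0.48 for CD11b+Ly-6G+ cells. A posterior of 0.9 gave 1 class trend (0.93 for CD4+ CD3-CD90.2+ cells), 2 neighbour differences, bearer trends of 0.76 for CD3+CD4+ and -0.40 for CD11b+Ly-6G+ cells, -3.06 points for CD127 on CD3+CD4+ cells, and a ratio of 1.04 in CD4+ CD3-CD90.2+ cells.

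At least 200 counts gave 4 neighbour differences and a CD3+CD4- trend of -0.43. That trend was -0.24 with ratios taken without CD103, and -0.60 with the top 5% removed, where the CD11b+Ly-6G+ bearer trend was -0.31. Mean log ratios turned the trends of CD64+Ly-6C- (0.38), CD11b+Ly-6C+ (0.57) and CD11b+Ly-6G+ cells (0.40). The percent of counts turned those of CD3+CD4- (-0.29) and CD64+Ly-6C- cells (0.29), and gave treatment ratios of 0.884 in CD3+CD4+, 1.18 in CD11c+CD64- and 0.354 in CD4- CD3-CD90.2+ cells. Treatment calls on this measure used the ratio and range conditions only, without intervals.

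Leaving out each untreated library gave bearer trends of 0.79 to 1.00 for CD3+CD4+, -0.93 to -0.75 for CD11c+CD64-, -1 to -0.89 for CD4- CD3-CD90.2+ and 0.89 to 1 for CD4+ CD3-CD90.2+ cells. Class trends ran from -0.036 (without week 7) to 0.61 for CD4- CD3-CD90.2+ cells and from -0.49 (without week 7) to 0.37 for CD3+CD4- cells. Neighbour differences ran from 0 to 4 and co-expression calls from 6 to 13, since classes with 6 libraries then fell under the minimum and were not tested; without weeks 2 and 6 there were 6 calls. For that reason KLRG1 was recomputed only without weeks 0 and 1 on CD3+CD4+ cells and without weeks 6 and 7 on CD4- CD3-CD90.2+ cells. The cause of the other changes was not tested. With 1 pool per week and 1 treated pool, depth and pool size limit what can be told apart, and classes under 100 cells at week 7 carry wide intervals.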
